A study of Mus musculus with 6 samples.

Results

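Transcripts of 10 genes that act on the EGF receptor before and after ligand binding were examined: the membrane metalloproteases Adam9, Adam10, Adam12 and Adam17, the inactive rhomboids Rhbdf1 and Rhbdf2, the receptor inhibitors Errfi1 and Lrig1, and the ubiquitin ligases Cbl and Cblb. They were chosen by gene name from the 54532 genes listed in the count files, and all 10 passed the filter on low counts that left 14129 genes to test. The cells were YAMC, a wild-type line that the labels call young adult mouse colonic epithelium, made from a mouse carrying the thermolabile SV40 large T antigen tsA58 under the interferon-gamma-inducible H-2Kb promoter. In both groups the labels give growth at 33 °C with interferon-gamma, so the controls carry the same antigen and cytokine. Treated cells (3 libraries) were given 2'-fucosyllactose (2'-FL), an oligosaccharide found in human milk, at 20 µg/ml for 6 h; untreated cells (3 libraries) served as controls, and the labels give no time for them. The series title concerns transactivation of the EGF receptor, meaning activation of the receptor through another signal. Transcript levels measure neither shedding nor receptor activity.

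Ligands of the EGF receptor are made as membrane-bound precursors, and ADAM metalloproteases cut them loose. ADAM17 depends on the inactive rhomboids iRhom1 and iRhom2 (genes Rhbdf1 and Rhbdf2) for its transport to the cell surface. Once the receptor is active, Cbl ligases attach ubiquitin to it and direct it to lysosomes, while MIG6 (gene Errfi1) blocks its kinase domain and LRIG1 lowers receptor levels at the membrane. In the intestine LRIG1 is also known as a marker of stem cells.

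Total counts ran from 19978583 to 25251187 per library, and the 10 genes together took between 0.149% and 0.159% of them. On principal components of log2 CPM (read counts scaled to a common library total), 2'-FL replicate 2 stood apart on the first component (28.0% of variance) and control replicate 1 on the second (21.7%). Of 8 epithelial markers, Krt8, Krt18 and Krt19 averaged over 10 CPM and the other 5 under 1 CPM; the intestinal factor Cdx2 had 0 counts in every library, which allows up to 0.0231 CPM over the 6 libraries together (counting error only), and Epcam averaged 0.337 CPM. Summed epithelial markers ran from 948 to 1172 CPM in treated libraries and from 849 to 969 CPM in controls. That sum rests on the 3 keratins, with log2 fold changes of 0.25 for Krt8, 0.07 for Krt18 and 0.25 for Krt19. Cdh1, the only other tested gene of the list, was lower with 2'-FL (-0.81), at 0.651 CPM on average. Summed fibroblast markers (6 genes, collagens first) ran from 6931 to 7928 and from 6537 to 6685 CPM, and 4 smooth muscle markers from 219 to 459 and from 138 to 199 CPM, so both sums were higher in every 2'-FL library. The fibroblast sum rests on Col1a1 and Col3a1, at 3547 and 2690 CPM on average. With 2'-FL, 3 of the 6 genes had higher means (log2 fold changes of 0.59 for Thy1, 0.20 for Col3a1 and 0.17 for Col1a1). The other 3 had lower means (-0.27 for Pdgfra, -0.29 for Pdgfrb and -0.07 for Dcn). The smooth muscle sum rests on Acta2, at 252 CPM. All 3 tested genes of that list were higher with 2'-FL (1.01 for Acta2, 0.74 for Cnn1 and 0.37 for Des). None of these differences passed the comparison of groups given below. Summed leukocyte markers (4 genes) ran from 22.9 to 27.1 CPM in treated libraries and from 18.5 to 27.3 CPM in controls, nearly all from Cd68 at 23.8 CPM, with Cd3e at 0 counts throughout and Ptprc at 0.0298 CPM. Summed endothelial markers (4 genes) ran from 15.5 to 19.0 and from 13.4 to 19.8 CPM, mostly from Tek at 11.8 and Kdr at 4.70 CPM, with Cdh5 at 0.0930 CPM. The part of these marker differences in the values below was not tested, and in bulk RNA fewer cells of a type and less RNA per cell cannot be told apart.

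None of the 10 genes passed the comparison of groups. By edgeR's quasi-likelihood test with Benjamini-Hochberg adjustment 0 of 10 passed, against a background of 0% of the 14129 genes tested (smallest adjusted p = 0.0914). By the DESeq2 Wald test 0 of 10 passed against 0.325% of 11389 genes with an adjusted p, and by limma-voom 0 of 10 against 0%. Groups did not overlap in 3 of the 10, against 13.1% of all genes. At an unadjusted edgeR p under 0.05 stood 2 of the 10, Cbl and Lrig1, both lower with 2'-FL, against 7.9% of all genes (4.54% lower, 3.36% higher). The median log2 fold change of the 10 was -0.09 and that of all genes -0.01; the median size without sign was 0.11 and 0.09. For 8 of the 10 genes the 95% interval of the log2 fold change included 0, and outside Adam12 no interval reached beyond a 1.33-fold difference in either direction.

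**Figure D1:**
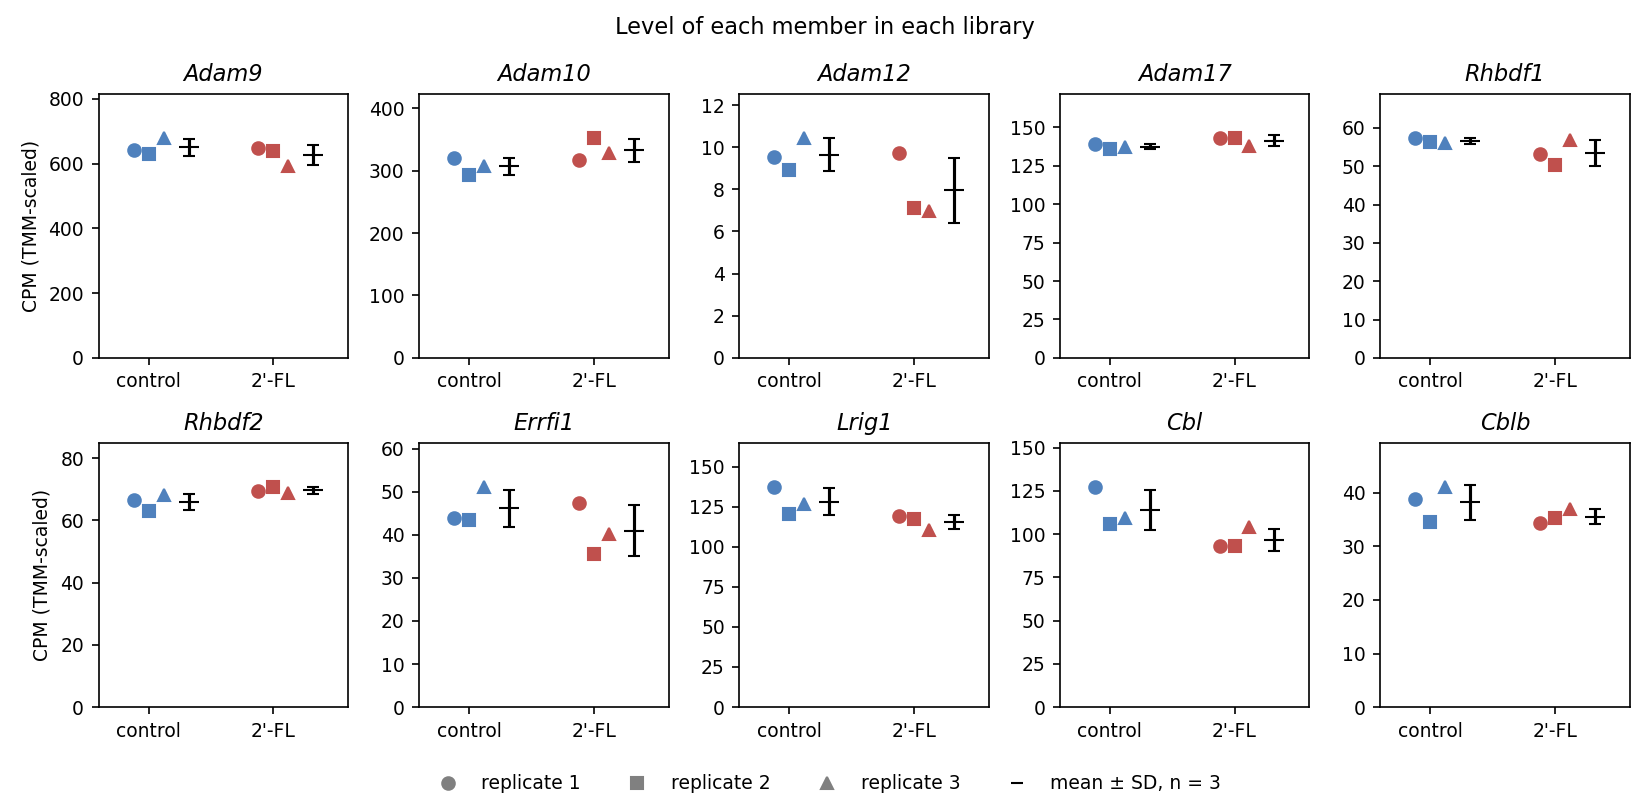
CPM, scaled with TMM factors (trimmed mean of M-values), for each of the 10 genes in each library (vertical axes from 0, separate for each gene), with controls in blue, 2'-FL in red, marker shapes for replicates, and black bars for mean ± SD (n = 3). The 2'-FL points of Cbl and Lrig1 lie below all control points and those of Rhbdf2 above them; in the other 7 genes the groups overlap.

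**Figure D2:**
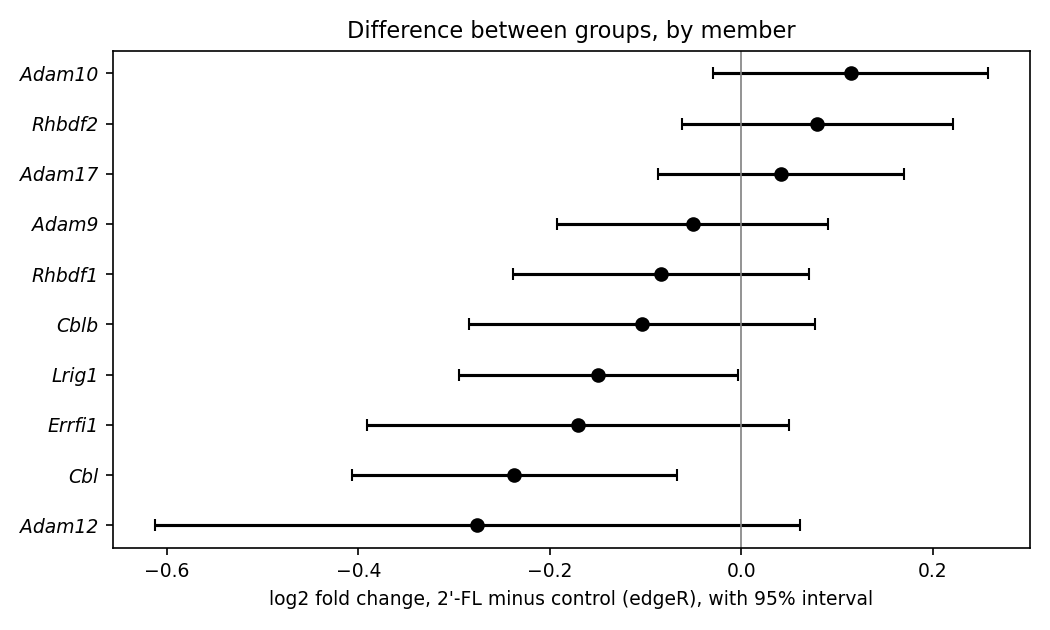
Log2 fold change, 2'-FL minus control, from edgeR for each of the 10 genes (points), with 95% intervals (bars). The intervals of Cbl (-0.41 to -0.07) and Lrig1 (-0.29 to -0.0038) lie below 0, and the other 8 cross it.

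Sequences before the start sites are shown for the 2 genes whose 2'-FL libraries all lay below the controls, Cbl and Lrig1, and for Errfi1, known as a gene that growth factors induce. They are from RefSeq on GRCm38.p6, as 250 bases before a start site on the gene's own strand, and the choice of these 3 was made after values were seen. Of the 10 genes, 6 had an entry in the promoter table, with 7 start sites in all. The window of Cblb lies wholly within an annotated exon of that gene, its start site 324 bases downstream of the deposited start. Capitals mark matches on either strand to the cAMP response element (CRE, TGACGTCA), the TATA box (TATAAA) and the GC box (GGGCGG). The second listed start site of Errfi1 is used, at chr4:150854820-150855069 (plus strand). It lies 1151 bases downstream of the deposited start of the gene, while the first listed site lies 123 bases upstream of that start. No other of the 7 windows held a CRE or a TATA box. Cbl is at chr9:44234047-44234296 and Lrig1 at chr6:94700146-94700395 (both minus strand).
Errfi1: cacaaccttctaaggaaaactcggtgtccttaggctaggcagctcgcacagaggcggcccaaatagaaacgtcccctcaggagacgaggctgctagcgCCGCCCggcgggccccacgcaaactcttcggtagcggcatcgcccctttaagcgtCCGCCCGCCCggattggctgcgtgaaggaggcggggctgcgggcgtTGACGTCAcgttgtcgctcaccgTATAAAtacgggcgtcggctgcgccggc
Cbl: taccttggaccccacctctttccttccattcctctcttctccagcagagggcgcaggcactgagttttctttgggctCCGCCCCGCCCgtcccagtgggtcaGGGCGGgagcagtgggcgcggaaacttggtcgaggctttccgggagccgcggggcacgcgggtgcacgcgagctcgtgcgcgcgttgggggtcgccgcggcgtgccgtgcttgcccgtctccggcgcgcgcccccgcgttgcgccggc
Lrig1: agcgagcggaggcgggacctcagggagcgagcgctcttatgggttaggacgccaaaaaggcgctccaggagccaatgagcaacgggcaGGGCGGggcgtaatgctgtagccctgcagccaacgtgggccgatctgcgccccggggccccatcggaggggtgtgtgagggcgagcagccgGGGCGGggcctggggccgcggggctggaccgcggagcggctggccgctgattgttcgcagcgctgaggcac
The Errfi1 window held a CRE whose first base was 51 bases before the start site and a TATA box at 28 bases. A CRE was present in 1.55% of 32851 promoter windows of the same length, a TATA box in 12.4% and a GC box in 32.7%. GC boxes numbered 3 in Errfi1, 3 in Cbl and 2 in Lrig1, with a pair overlapping each other in both Errfi1 and Cbl. The window of the first listed Errfi1 start site, at chr4:150853546-150853795, held none of these letters. The interferon-gamma-activated site (GAS, TTCNNNGAA), found in 7.02% of windows, and the AP-1 site (TGANTCA), found in 6.75%, were searched as well and had 0 matches in all 7 windows. The E-box (CACGTG), found in 6.02%, had 1 match, in Adam10. These are matches of letters only; the counts do not say which start site was used.

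Per kilobase of gene length as the files give it, the 10 genes spanned more than 2 orders of magnitude. Adam9 stood highest at 155 ± 6.95 CPM per kilobase (SD, n = 6), followed by Adam10 at 65.1 ± 4.11, and their ranges over the libraries were apart. Lrig1 at 21.8 ± 1.65 and Adam17 at 19.5 ± 0.452 CPM per kilobase came next, with ranges that overlapped. Rhbdf2 (12.8 ± 0.508), Errfi1 (12.2 ± 1.52), Rhbdf1 (10.1 ± 0.511) and Cbl (8.53 ± 1.03 CPM per kilobase) formed a run in which each neighbour overlapped the next. Cblb followed at 3.52 ± 0.258 and Adam12 at 0.831 ± 0.136 CPM per kilobase, each apart from the gene above it (SD, n = 6 for all).

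**Figure D3:**
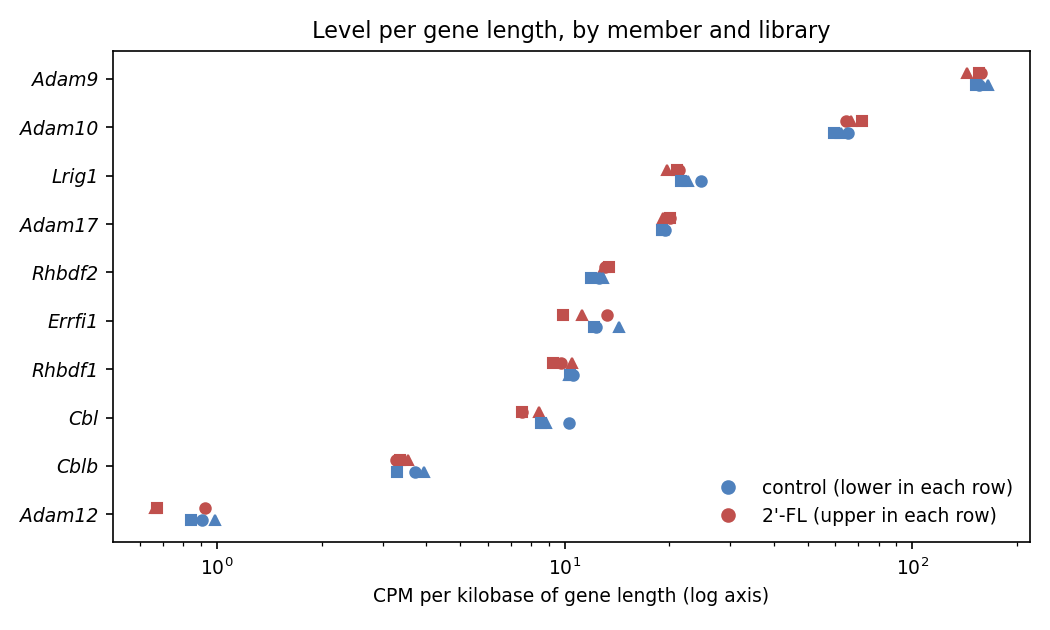
CPM per kilobase of gene length on a log axis for each of the 10 genes in each library, with controls in blue (lower in each row), 2'-FL in red (upper) and marker shapes for replicates. Adam9 and Adam10 stand apart at the top and Cblb and Adam12 at the bottom, and the spread between libraries is small beside the steps between these genes.

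Among the sheddases, Adam9 (ENSMUSG00000031555, GRCm38 chr8:24949611-25016927, minus strand) is a metalloprotease able to cut membrane-bound growth factors. Its level was 649, 640 and 593 CPM in the treated libraries, replicates 1 to 3, and 642, 628 and 680 CPM in control replicates 1 to 3. The groups overlapped, and the log2 fold change was -0.05 ± 0.07 (SE, edgeR adjusted p = 0.886). Adam10 (ENSMUSG00000054693, chr9:70678997-70780229, plus strand), the main sheddase of EGF and betacellulin, stood at 317, 353 and 328 CPM in treated libraries and 321, 293 and 307 CPM in controls. Only 2'-FL replicate 1 lay within the control range, and the log2 fold change was 0.11 ± 0.07 (SE, edgeR adjusted p = 0.719).

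Adam17 (ENSMUSG00000052593, chr12:21323509-21373632, minus strand), the sheddase of TGF-alpha, amphiregulin and HB-EGF, varied least of the 10. It stood at 143, 143 and 138 CPM in treated libraries and 139, 136 and 137 CPM in controls, a coefficient of variation of 2.32% over the 6 libraries. The log2 fold change was 0.04 ± 0.06 (SE, edgeR adjusted p = 0.902), with a 95% interval for the fold of 0.941 to 1.12. Its span overlaps Iah1 on the other strand, whose counts came to 10.1% of those of Adam17, and the sources used here do not say if reads were counted by strand. Adam12 (ENSMUSG00000054555, chr7:133883199-134232146, minus strand), a metalloprotease linked to HB-EGF release, was the least counted, with 140 to 228 counts per library. It stood at 9.74, 7.11 and 6.99 CPM in treated libraries and 9.55, 8.90 and 10.5 CPM in controls. Replicates 2 and 3 with 2'-FL lay below every control and replicate 1 among them, and the log2 fold change, -0.28 ± 0.16 (SE, edgeR adjusted p = 0.715), was the largest in size of the 10 genes and the least precise. Without 2'-FL replicate 1 it was -0.45 (edgeR adjusted p = 0.376). Counting error alone is 8.45% at its lowest count, where the coefficient of variation was 19.5% with 2'-FL and 8.08% in controls.

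The inactive rhomboids had differences of opposite sign. Rhbdf1 (ENSMUSG00000020282, chr11:32209585-32222300, minus strand) stood at 53.2, 50.3 and 56.9 CPM in treated libraries and 57.5, 56.3 and 56.1 CPM in controls, with overlap through 2'-FL replicate 3, and its log2 fold change was -0.08 ± 0.07 (SE, edgeR adjusted p = 0.819). Rhbdf2 (ENSMUSG00000020806, chr11:116598165-116627019, minus strand) stood at 69.3, 70.8 and 68.8 CPM in treated libraries and 66.4, 63.1 and 68.2 CPM in controls. All 3 2'-FL libraries lay above all 3 controls, by little in the nearest pair, and the log2 fold change was 0.08 ± 0.07 (SE, edgeR adjusted p = 0.811). Groups that did not overlap in this direction were found in 6.74% of all genes tested.

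Of the receptor inhibitors, Errfi1 (ENSMUSG00000028967, chr4:150853919-150868892, plus strand) varied widely within both groups. It stood at 47.4, 35.5 and 40.2 CPM in treated libraries and 44.0, 43.4 and 51.2 CPM in controls. The highest 2'-FL library lay above 2 of the 3 controls, and the log2 fold change was -0.17 ± 0.10 (SE, edgeR adjusted p = 0.724). It was -0.29 without 2'-FL replicate 1, -0.08 without 2'-FL replicate 2 and -0.08 without control replicate 3, none of which passed. The coefficient of variation was 14.6% with 2'-FL and 9.41% in controls, against a counting error of 3.52% at the lowest count.

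Lrig1 (ENSMUSG00000030029, chr6:94604529-94700158, minus strand) stood at 119, 117 and 110 CPM in treated libraries and 137, 121 and 126 CPM in controls. Every 2'-FL library lay below every control, with control replicate 2 nearest to them. The log2 fold change was -0.15 ± 0.07 (SE; unadjusted p = 0.0450, edgeR adjusted p = 0.620), with a 95% interval for the fold of 0.815 to 0.997. Without control replicate 1 it was -0.10 with an unadjusted edgeR p of 0.214. Its span overlaps Slc25a26 on the other strand, whose counts came to 5.89% of those of Lrig1.

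The ubiquitin ligase Cbl (ENSMUSG00000034342, chr9:44142976-44234049, minus strand) had the smallest p of the 10 genes. It stood at 92.9, 93.2 and 104 CPM in treated libraries and 127, 106 and 109 CPM in controls. Every 2'-FL library lay below every control, 2'-FL replicate 3 by less than 2 CPM, and control replicate 1 stood well above the other controls. The means were 96.7 ± 6.32 and 114 ± 11.7 CPM (n = 3 each, SD), that is, a log2 fold change of -0.24 ± 0.08 (SE; unadjusted p = 0.00942, edgeR adjusted p = 0.496), which ranked Cbl 267th among 14129 genes by p. Without control replicate 1 the log2 fold change was -0.15 (edgeR adjusted p = 0.721), and without both that library and 2'-FL replicate 2 it was -0.12 (edgeR adjusted p = 0.999). Non-overlap in this direction, seen in Cbl and Lrig1, was found in 6.31% of all genes.

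Cblb (ENSMUSG00000022637, chr16:52031225-52208048, plus strand), the relative of Cbl with the same ligase activity, stood at 34.3, 35.2 and 37.1 CPM in treated libraries and 38.9, 34.6 and 41.1 CPM in controls. Control replicate 2 lay within the 2'-FL range, and the log2 fold change was -0.10 ± 0.08 (SE, edgeR adjusted p = 0.806). It was -0.17 without control replicate 2 and -0.04 without control replicate 3, neither of which passed. Cblc, the third gene of the family, did not pass the filter on low counts.

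Ratios of gene pairs within a library do not depend on how libraries are scaled, and 4 were compared by exact permutation (two-sided), where 0.1 is the lowest p that 3 against 3 libraries allow. The ratio of Adam17 to Adam10 counts per kilobase was 0.311, 0.279 and 0.288 in treated replicates 1 to 3 and 0.298, 0.318 and 0.306 in controls (exact p = 0.3, adjusted p = 0.4). That of Rhbdf2 to Rhbdf1 was 1.34, 1.45 and 1.24 with 2'-FL and 1.19, 1.15 and 1.25 in controls (exact p = 0.2, adjusted p = 0.4), so that Rhbdf2 was the more abundant iRhom transcript in all 6 libraries. Cblb stood at 0.436, 0.446 and 0.420 of Cbl with 2'-FL and at 0.360, 0.386 and 0.445 in controls (exact p = 0.3, adjusted p = 0.4). Errfi1, set against the receptor transcript Egfr, stood at 0.539, 0.413 and 0.475 with 2'-FL and at 0.453, 0.516 and 0.576 in controls (exact p = 0.5, adjusted p = 0.5). The groups overlapped in all 4 ratios.

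**Figure D4:**
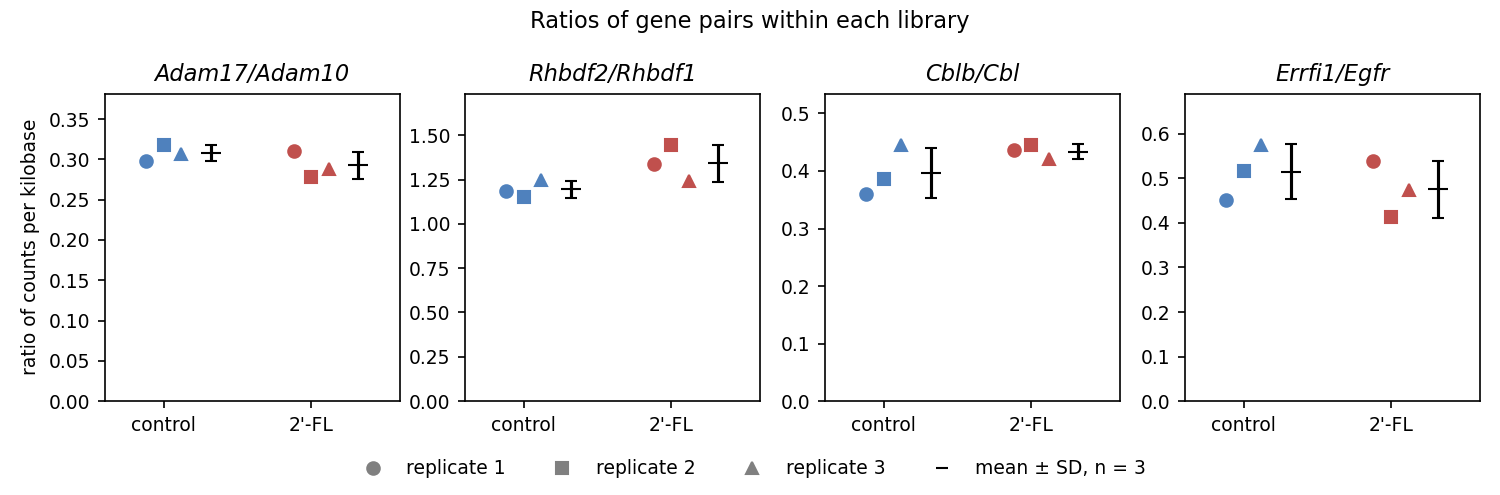
Ratios of counts per kilobase within each library for 4 gene pairs (vertical axes from 0, separate for each pair), with controls in blue, 2'-FL in red, marker shapes for replicates, and black bars for mean ± SD (n = 3). The groups overlap in every pair, and the Rhbdf2 to Rhbdf1 ratio is above 1 in all 6 libraries.

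Other genes of the same pathway were taken from 5 lists with 86 names, of which 81 passed the filter. By edgeR 0 of 81 passed over all genes in either direction, and 5 of 81 had an unadjusted p under 0.05, 1 higher and 4 lower (6.17%, against 7.9% of all genes). Their median log2 fold change was -0.03, with 33 higher and 48 lower, where 48.4% of all genes tested were higher; the 2 genes of smallest p in each list are given here with log2 fold changes and SE, none of which passed. Among 20 other shedding genes, Adam33, another metalloprotease, had -0.44 ± 0.19 and the metalloprotease inhibitor Timp1 had -0.18 ± 0.12. The level of Adam33 was 7.79 CPM in 2'-FL replicate 2, against 14.7 to 18.8 CPM in the other libraries. Frmd8, the iRhom-binding protein also called iTAP, averaged 139 ± 5.12 CPM (SD, n = 6).

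Among 15 tested partners of Cbl and other ligases or deubiquitinases, the Cbl-like ligase Cbll1 had a log2 fold change of -0.20 ± 0.11 (SE) and the deubiquitinase Stambp 0.16 ± 0.10 (SE). Of 19 tested genes of endocytosis and sorting, 12 were higher with 2'-FL and 7 lower, with a median log2 fold change of 0.02. The clathrin adaptor subunit Ap2m1 had a log2 fold change of 0.16 ± 0.07 and the ATPase Vps4a 0.11 ± 0.08 (SE). The sorting gene Hgs did not pass the filter: it is listed under 2 identifiers, with at most 2 counts in a library. How reads that match both identifiers were counted is not given, so these counts may not reflect its expression. Among 17 other attenuators, 14 were lower with 2'-FL and 3 higher, with a median log2 fold change of -0.07, where 48.4% of all genes tested were higher. Neither this tally nor that of the sorting genes was tested. The receptor phosphatase Ptprj stood at 142 ± 2.26 CPM in treated libraries and 162 ± 11.3 CPM in controls (n = 3 each, SD), with a log2 fold change of -0.19 ± 0.07 (SE; unadjusted p = 0.0121, edgeR adjusted p = 0.503), and Lrig2, a relative of Lrig1, had -0.25 ± 0.10 (SE, edgeR adjusted p = 0.580). Among 10 tested receptors and ligands, the ligand Btc had -0.32 ± 0.08 (SE, edgeR adjusted p = 0.319) and Nrg1 0.14 ± 0.08 (SE).

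**Figure D5:**
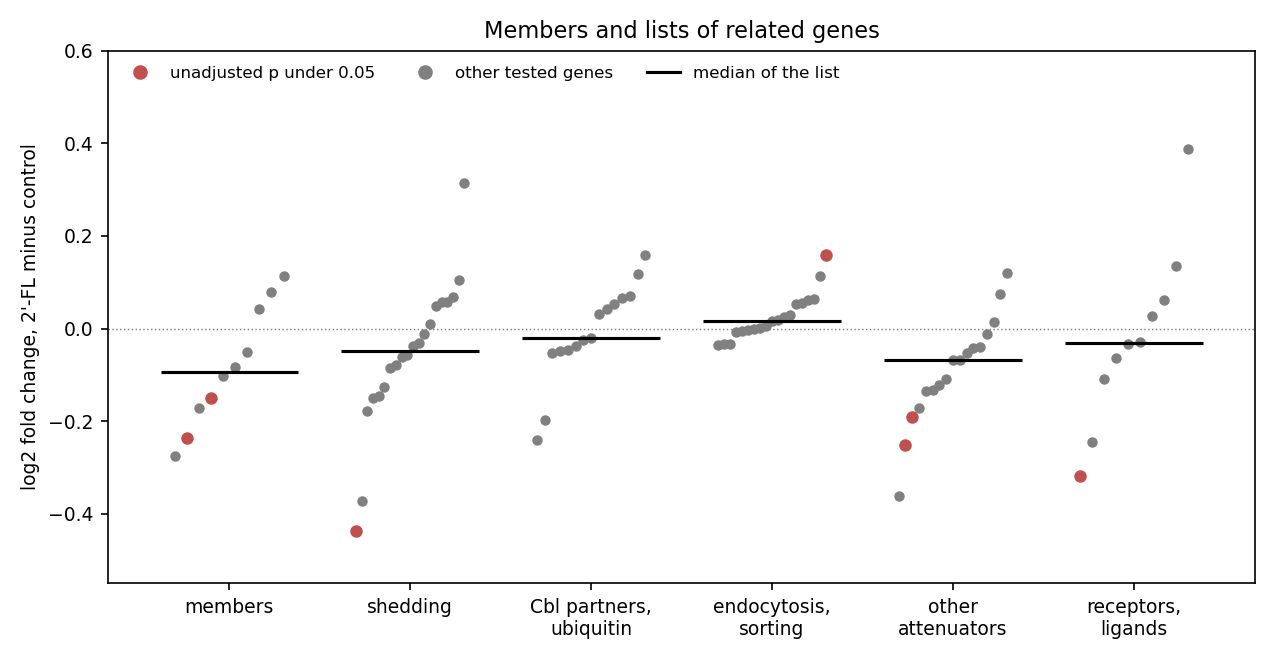
Log2 fold change, 2'-FL minus control, for the 10 genes (labelled members) and for the tested genes of 5 related lists, ordered by value within each list, with black lines at list medians and red points at an unadjusted p under 0.05. The medians lie between -0.09 and 0.02, and no gene shown passed the adjusted test.

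The genes whose levels followed those of Errfi1 most closely over the 6 libraries were Git2, Ralgps1 and Ninl, with Pearson's r of log2 CPM of 0.996, 0.990 and 0.988. Those closest to Lrig1 were Zfp652, Atp7a and Tmem67, with r of 0.995, 0.986 and 0.980. These are descriptions over 6 libraries, picked as the highest among 9591 genes with a mean of at least 10 CPM, of which 188 and 147 had r over 0.9.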

How the data were processed

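RNA of 6 libraries was analysed, 3 per group, assigned from the titles. The authors deposited unnormalized read counts as whole numbers, 1 file per library, with gene lengths and coordinates beside them, per the file headers. An RNeasy kit (RNA) and a NEBNext Ultra II kit (libraries) were used, per the labels' protocols. Tools in the submitters' processing notes are Bowtie2 (version given as 2.7.3a), FastQC 0.11.9 and bcl2fastq, with the build GRCh38, while identifiers and coordinates are of the mouse build GRCm38. The sources used here do not give the counting program or its use of strand. The labels do not say whether replicates are separate cultures; p-values therefore reflect the spread among these libraries alone, possibly technical. Pairs of libraries differed by a chi-square per gene of 5.26 to 19.0, more than sampling noise. Each library was counted once, and these values do not show whether replicates were separate cultures.

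Counts were tested in R 4.3.3 with edgeR 4.0.16: filterByExpr by group (minimum count 10), TMM factors, the quasi-likelihood F-test without a block, Benjamini-Hochberg adjustment over 14129 genes and a threshold of 0.05. CPM use TMM factors except for marker genes and sums, which use library totals. SE was the fold change on the log2 scale divided by the root of F. DESeq2 1.42.0 (independent filtering at 0.05) and limma 3.58.1 (voom) were alternatives, beside other scalings and filters, a replicate block, robust estimation and leaving out libraries. The edgeR script was run on simulated data with planted fold changes, and the fold it could detect is not given here. The genes and lists were chosen with earlier results of these data known. Named genes are the 10 listed, Egfr, the 2 of smallest p per list where none passed, and the 3 most correlated genes for Errfi1 and Lrig1; Frmd8, Hgs, Cblc, the overlapping genes Iah1 and Slc25a26, and the genes named from the marker lists were added after values were seen.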

Additional observations from a re-analysis of the deposited data

How the results depend on the processing

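Under all 16 alternatives, 0 of the 10 genes and 0 of the related genes passed, and each of the 10 log2 fold changes kept its sign; adjusted p of Cbl stayed at 0.213 or above. Over all genes, the count of calls was 0 by edgeR and became 158 without a filter on low counts, 37 by the DESeq2 Wald test and 5 with robust estimation, and ran from 0 to 28 with 1 library left out (21 without 2'-FL replicate 1 and 28 without control replicate 2). With 1 library left out, each of the 10 values moved by over 1.5 times in at least 1 case, with log2 fold changes from -0.08 to -0.0088 for Adam9, 0.07 to 0.15 for Adam10, -0.45 to -0.19 for Adam12, 0.03 to 0.06 for Adam17, -0.13 to -0.04 for Rhbdf1, 0.05 to 0.11 for Rhbdf2, -0.29 to -0.08 for Errfi1, -0.19 to -0.10 for Lrig1, -0.29 to -0.15 for Cbl and -0.17 to -0.04 for Cblb. With the replicate number as a replicate block the count was 1 and Cbl had a log2 fold change of -0.23. Correlations of same-numbered libraries, after centring within each group, were -0.12, -0.07 and -0.05. With so few libraries per group, these values cannot show whether same-numbered libraries shared a culture or day, which the labels do not say. Leaving out 2'-FL replicate 2 and control replicate 1 together was chosen after seeing the data. The causes of these shifts were not tested. Counting error at the lowest count was largest for Adam12, at 8.45%, and was 3.68% or less for the other 9 genes. With 2'-FL the coefficient of variation of Adam12, 19.5%, was well above that counting error.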
